A study of Mus musculus with 6 samples.

Results

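Messenger RNA levels of the hypoxia-inducible factor (HIF) pathway were examined in induced brown adipocytes of U-IRX3ov and control mice. The 10 genes are the alpha subunits Hif1a, Epas1 and Hif3a, the beta subunit Arnt, the prolyl hydroxylases Egln1, Egln2 and Egln3, the ubiquitin ligase subunit Vhl and the direct targets Car9 and Ankrd37. They were chosen by gene symbol from the 46095 rows of the deposited count table, with the U-IRX3ov and control values of these same libraries already known. Their fold changes and calls are therefore given as a description. The cells were grown from the stromal vascular fraction of brown fat of C57BL/6 mice aged 5 weeks and differentiated for 8 days. For the first 2 days the medium held IBMX at 0.5 mM, insulin at 5 µg/mL, and rosiglitazone, dexamethasone and triiodothyronine each at 1 µM, and for the following 6 days insulin, rosiglitazone and triiodothyronine. Of the 6 libraries, 3 came from U-IRX3ov cells and 3 from control cells. The name U-IRX3ov gives IRX3 overexpression and the library titles read KI, while the sources used here give neither the construct and its promoter nor the alleles of the control mice. Whether libraries of the same group stem from different mice or cultures is not stated, so every test measures only the spread between these libraries, which may be technical.

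HIF is a transcription factor made of an oxygen-regulated alpha subunit and the constitutive beta subunit ARNT. When oxygen is available, the EGLN enzymes hydroxylate prolines of the alpha subunit, which lets the VHL protein bind it and mark it for degradation by the proteasome. When oxygen is scarce, or the enzymes are otherwise inactive, the alpha subunit accumulates, pairs with ARNT and binds hypoxia response elements near its target genes. Egln3, Egln1, Car9 and Ankrd37 are well-known targets of HIF, as are many genes of glycolysis, and brown fat is a tissue with a high demand for oxygen. Because the alpha subunits are controlled mainly at the level of protein, their mRNA does not report how much protein a cell holds.

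Library totals ran from 20094799 to 26755870 counts, and 14757 genes were tested. Irx3, named in the genotype, had 163, 123 and 114 counts in U-IRX3ov libraries and 131, 142 and 138 counts in control libraries. In CPM (counts relative to the TMM-scaled library total) it had 6.27, 6.31 and 5.89 in U-IRX3ov libraries and 4.78, 5.42 and 5.12 in control libraries, with no overlap (log2 fold change 0.27 ± 0.13 SE, edgeR adjusted p = 0.112), so a higher level was not shown by the test. Whether RNA of the construct is counted under this symbol is not stated. All 10 brown adipocyte markers, among them Ucp1 and Cidea, were detected and higher in U-IRX3ov cells, with a summed level of 788 to 891 CPM in U-IRX3ov libraries and 300.2 to 309.9 CPM in control libraries. General adipocyte markers were higher in 10 of 12, with summed levels of 45620 to 47400 CPM in U-IRX3ov and 35630 to 36570 CPM in control libraries. Preadipocyte and fibroblast markers were lower in 11 of 12, at 5835 to 6271 CPM in U-IRX3ov and 9391 to 9639 CPM in control libraries. Macrophage and leukocyte markers were lower in all 10 tested of 12 listed, at 153 to 228 CPM in U-IRX3ov and 478 to 588 CPM in control libraries. Endothelial markers were higher in 5 and lower in 1 of 11 tested, with Cldn5 at 0 in every library and a median log2 fold change of 0.46. Their sum was 95.6 to 107 CPM in U-IRX3ov and 116 to 122 CPM in control libraries, and the lower member, Eng, made up much of it, with 32.9 ± 3.40 CPM in U-IRX3ov and 73.1 ± 1.24 CPM in control cells (SD, n = 3 each). Pericyte and smooth muscle markers were higher in 2 and lower in 4 of 7 tested, at 2791 to 3097 CPM in U-IRX3ov and 4459 to 4692 CPM in control libraries. In RNA of a mixed culture, fewer cells of a type and less RNA per cell cannot be told apart, and the part of this shift in cell markers in the results below was not tested.

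Of the 10 HIF pathway genes 6 were higher in U-IRX3ov than in control cells, 1 was lower and 3 did not pass an adjusted p of 0.05 in a fit across all genes. Egln3 stood highest by log2 fold change and Hif1a was the member that fell. All 10 passed the filter on low counts, but Car9 did so only through its U-IRX3ov libraries. Its control libraries held 0.260 to 0.365 CPM, so its place among the genes tested rests on the group where it is high. The median log2 fold change of the 10 was 0.41, beside 0.00 (-0.0047) for all genes tested. Of all genes tested, 41.3% were called, 20.2% higher and 21.1% lower. In 9 of the 10 genes the U-IRX3ov and control libraries did not overlap in CPM, which held for 50.8% of all genes. Without scaling beyond the library total, 29.3% of all calls were higher in place of 48.8%, and the members' counts became 4 higher and 2 lower.

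Among the prolyl hydroxylases, Egln3 and Egln1 rose in U-IRX3ov cells while Egln2 did not pass the threshold. Egln3, the enzyme of this family whose mRNA is itself strongly induced by HIF, had 138, 158 and 158 CPM in U-IRX3ov libraries and 31.1, 30.98 and 28.95 CPM in control libraries. The groups lay far apart, with the lowest U-IRX3ov library, number 1, more than 100 CPM above every control library. The log2 fold change was 2.32 ± 0.05 (SE), a 4.98-fold difference, and it ranked 18 of 14757 genes from the top. Egln3 lies on chromosome 12 at 54178981 to 54203860 (minus strand, mm10) and no annotated gene overlaps it.

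Egln1, the main enzyme that sets HIF stability in most tissues, had 133.5, 140.1 and 135 CPM in U-IRX3ov libraries and 81.2, 85.7 and 80.4 CPM in control libraries. Again no library of a group reached the other group, and the spread within each group was small (SD 3.50 in U-IRX3ov and 2.86 CPM in control, n = 3). The log2 fold change was 0.72 ± 0.04 (SE), or 1.65-fold, and 10.7% of all genes had a larger absolute log2 fold change. Egln1 lies on chromosome 8 at 124908587 to 124949324 (minus strand). Egln2, the third hydroxylase, had 60.8, 59.3 and 55.1 CPM in U-IRX3ov libraries and 55.5, 55.1 and 58.7 CPM in control libraries, and the groups overlapped. Its log2 fold change was 0.05 ± 0.05 (SE) and turned to -0.04 when only library totals were used for scaling. Egln2 lies on chromosome 7 at 27158658 to 27166802 (minus strand), and exons of Cyp2t4, with 0 counts in every library, overlap it.

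**Figure D1:**
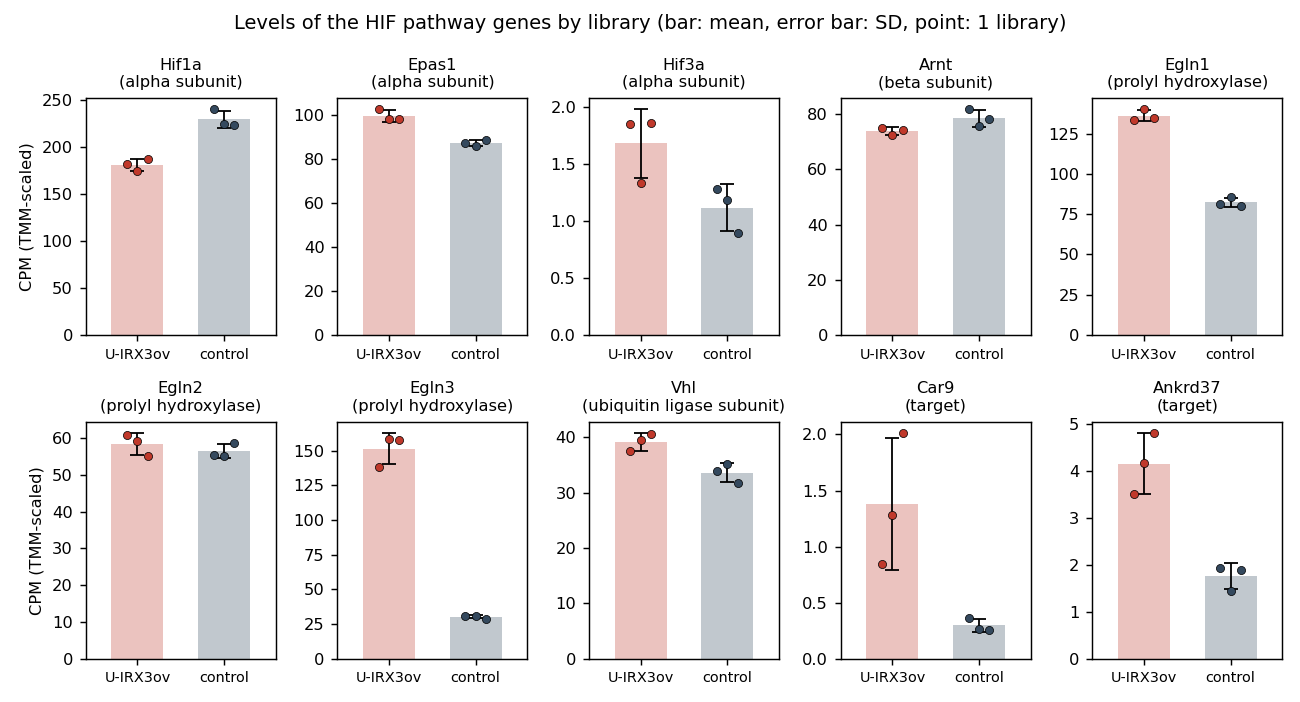
CPM (TMM-scaled) of each of the 10 genes, with U-IRX3ov on the left and control on the right of every panel. Bars are means, error bars SD and points single libraries (n = 3 per group). Egln3 averages 151 CPM in U-IRX3ov and 30.3 CPM in control cells, while the points of Egln2 overlap.

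Both targets were higher in U-IRX3ov cells, at low levels. Car9, a carbonic anhydrase of the cell surface that is among the most used marker genes of HIF activity, had 22, 25 and 39 counts in U-IRX3ov libraries and 10, 7 and 7 counts in control libraries. In CPM this was 0.846, 1.28 and 2.01 in U-IRX3ov libraries and 0.365, 0.267 and 0.260 in control libraries. The groups did not overlap, but the U-IRX3ov libraries varied among themselves more than for any other member, with a coefficient of variation of 42.7% against 19.8% in control libraries. Pooled over each group, 86 counts gave 1.33 CPM in U-IRX3ov cells (exact Poisson 95% interval 1.06 to 1.64, counting error only) and 24 counts gave 0.298 CPM in control cells (0.191 to 0.444). The log2 fold change was 2.17 ± 0.42 (SE), and it ran from 1.80 to 2.45 when each library was left out in turn. Car9 lies on chromosome 4 at 43506966 to 43513729 (plus strand), where exons of the antisense gene Gm12454 overlap it. Gm12454 has no row under that symbol in the table used here. Since it is not stated whether the counting used strand, some of its reads may be counted for Car9.

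Ankrd37, which encodes a small ankyrin repeat protein, had 3.50, 4.16 and 4.80 CPM in U-IRX3ov libraries and 1.94, 1.45 and 1.89 CPM in control libraries. The lowest U-IRX3ov value exceeded the highest control value. In log2 terms the difference was 1.23 ± 0.21 (SE), or 2.34-fold. Ankrd37 lies on chromosome 8 at 45996902 to 46005707 (minus strand), and exons of Ufsp2 and Lrp2bp overlap it on the other strand. Ufsp2 held 1089 to 1413 counts in U-IRX3ov libraries and 1040 to 1210 counts in control libraries, against 81 to 93 and 38 to 53 for Ankrd37. Its log2 fold change was 0.40 ± 0.06 (SE), and since it is not stated whether the counting used strand, some of its reads may be counted for Ankrd37. Lrp2bp held 5 to 13 and 13 to 16 counts. Egln3, Car9 and Ankrd37 each had their lowest U-IRX3ov value in library 1. The same held for Egln1 and Vhl, and how often it held over all genes was not computed.

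The alpha subunits moved in different directions. Hif1a, the broadly expressed alpha subunit, had 181.5, 175 and 187 CPM in U-IRX3ov libraries and 239.9, 225 and 223.0 CPM in control libraries. Every U-IRX3ov library lay below every control library. The log2 fold change was -0.34 ± 0.04 (SE), 0.790 of the control level, and 33.5% of all genes had a larger absolute change. Hif1a lies on chromosome 12 at 73901375 to 73947530 (plus strand), and the antisense gene Gm15283 shares 330 bases of exon with it. Gm49321, a protein-coding gene on the same strand, also overlaps its exons and has no row under that symbol in the table used here. Gm15283 held 54, 52 and 53 counts in U-IRX3ov libraries and 1 count in each control library, beside 3402 to 4719 counts of Hif1a in U-IRX3ov and 5881 to 6571 in control libraries.

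Epas1, which encodes HIF-2 alpha and is prominent in endothelial and fat cells, had 102.6, 97.97 and 97.98 CPM in U-IRX3ov libraries and 87.4, 85.8 and 88.4 CPM in control libraries. The groups did not overlap, and the log2 fold change was 0.19 ± 0.04 (SE), or 1.14-fold. Of all genes tested, 53.3% had a larger absolute change. The call was lost when only library totals were used for scaling (0.09 ± 0.04). Of the endothelial markers, Pecam1 (log2 fold change 1.36 ± 0.12), Cdh5 (1.04 ± 0.10), Tie1 (1.33 ± 0.24), Emcn (0.85 ± 0.21) and Egfl7 (0.46 ± 0.16) were higher in U-IRX3ov cells and Eng was lower (-1.15 ± 0.06). The other tested markers of this list did not pass: Flt1 (0.03 ± 0.08), Kdr (0.31 ± 0.21), Robo4 (0.50 ± 0.30), Tek (-0.02 ± 0.23) and Vwf (-0.13 ± 0.45). The part of endothelial cells in the Epas1 value was not tested. Epas1 lies on chromosome 17 at 86753700 to 86833410 (plus strand).

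Hif3a, an alpha subunit gene with several splice forms, some of which inhibit the other alpha subunits, was close to the limit of detection. It had 48, 26 and 36 counts in U-IRX3ov libraries and 35, 31 and 24 counts in control libraries, or 1.68 ± 0.30 and 1.12 ± 0.20 CPM (SD, n = 3 each). The libraries of the groups did not overlap in CPM, yet the log2 fold change of 0.59 ± 0.29 (SE) did not pass the threshold. The exact Poisson 95% intervals of the pooled levels, 1.39 to 2.04 CPM in U-IRX3ov and 0.899 to 1.37 CPM in control cells, lay just apart, before any variation between cultures is counted. Arnt, the shared partner of the alpha subunits, had 74.98, 72.5 and 74.4 CPM in U-IRX3ov libraries and 81.8, 75.8 and 78.2 CPM in control libraries. The groups lay narrowly apart, and its log2 fold change of -0.09 ± 0.05 (SE) did not pass, although it did with library totals alone (-0.18 ± 0.05). Hif3a lies on chromosome 7 at 17031507 to 17062427 (minus strand) and Arnt on chromosome 3 at 95434388 to 95497240 (plus strand).

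Vhl, the subunit that recognises the hydroxylated prolines, had 37.5, 39.5 and 40.6 CPM in U-IRX3ov libraries and 34.0, 35.1 and 31.7 CPM in control libraries. The groups were apart by a small margin, and the log2 fold change was 0.22 ± 0.06 (SE), or 1.16-fold. With library totals alone it was 0.12 ± 0.06 and no longer passed. Vhl lies on chromosome 6 at 113623959 to 113631633 (plus strand).

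**Figure D2:**
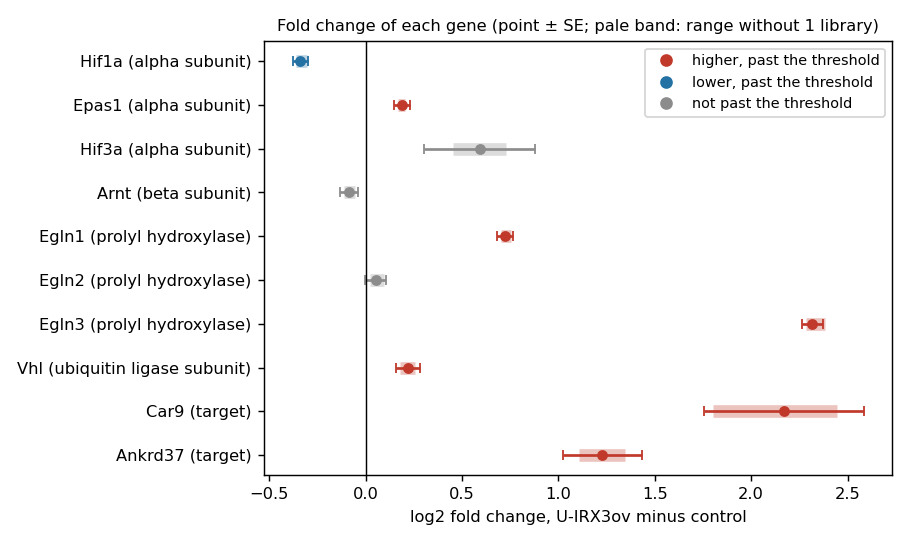
Log2 fold change of each gene, U-IRX3ov minus control, with its SE, and as a pale band the range over the 6 fits that each leave out 1 library. Red marks higher and blue lower genes past an adjusted p of 0.05. Egln3 and Car9 lie above 2, Hif1a lies at -0.34, and Egln2, which turns to -0.04 with library totals alone, lies near 0.

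Levels can be set against each other per kilobase of annotated exon. In U-IRX3ov cells Egln3 was the most abundant of the 10 genes, at 56.9 ± 4.25 CPM per kb (SD, n = 3), followed by Egln1 (37.9 ± 0.97) and Hif1a (30.7 ± 1.08). Egln2 followed at 20.85 ± 1.07 CPM per kb, Epas1 at 17.8 ± 0.47, Vhl at 13.1 ± 0.54 and Arnt at 9.24 ± 0.17. At the low end stood Ankrd37 at 2.70 ± 0.42, Car9 at 0.599 ± 0.256 and Hif3a at 0.250 ± 0.045 CPM per kb. No neighbours in this order overlapped over the U-IRX3ov libraries. In control cells Hif1a came first at 38.9 ± 1.58 CPM per kb, before Egln1 (22.9 ± 0.80), Egln2 (20.15 ± 0.70) and Epas1 (15.6 ± 0.24). Egln3 had rank 5 in control cells at 11.4 ± 0.45 CPM per kb, a level whose libraries overlapped those of Vhl (11.2 ± 0.58), and Arnt followed at 9.82 ± 0.38. Ankrd37 had 1.14 ± 0.17 CPM per kb, and Hif3a (0.167 ± 0.030) and Car9 (0.129 ± 0.026) overlapped each other.

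Ratios between genes of the same library do not depend on how libraries are scaled. Egln3 made up 46.9%, 49.7% and 50.9% of the summed Egln level per kb in U-IRX3ov libraries and 21.6%, 21.1% and 20.1% in control libraries. Egln2 made up 18.1% ± 1.39 in U-IRX3ov and 37.0% ± 1.53 in control cells, and Egln1 32.8% ± 0.67 and 42.1% ± 1.02 (SD, n = 3 each). Egln3 was the most abundant of them in every U-IRX3ov library, and Egln1 in every control library. The summed level of the hydroxylases, which unlike the shares depends on how libraries are scaled, was 115.6 ± 4.43 CPM per kb in U-IRX3ov and 54.5 ± 0.59 in control cells.

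Among the alpha subunits, Hif1a made up 63.0% ± 0.96 of the summed level in U-IRX3ov and 71.1% ± 0.83 in control cells, and Epas1 36.5% ± 1.00 and 28.6% ± 0.87. The ratio of Hif1a to Epas1 per kb was 1.68, 1.69 and 1.81 in U-IRX3ov libraries and 2.60, 2.48 and 2.39 in control libraries, with no overlap. The ratio of Hif1a to Arnt was 3.32 ± 0.08 in U-IRX3ov and 3.96 ± 0.08 in control cells, and that of Epas1 to Arnt 1.93 ± 0.04 and 1.59 ± 0.05. The summed alpha subunit level, which depends on how libraries are scaled, was 48.8 ± 1.24 CPM per kb in U-IRX3ov and 54.65 ± 1.63 in control cells. Relative to the mRNA of Hif1a, the member that fell, both Egln3 (1.85 ± 0.16 in U-IRX3ov and 0.293 ± 0.0105 in control cells) and Vhl (0.426 ± 0.019 and 0.289 ± 0.016) were higher in every U-IRX3ov library than in any control library. Epas1, the other main alpha subunit, rose 1.14-fold, beside 1.16-fold for Vhl. Ratios of Egln3 and Vhl to Epas1 were not computed. Both numerator and denominator of these ratios are measured with error, and the annotation used for counting is not stated, so the lengths are an approximation. A length error changes a ratio of a gene pair by the same factor in both groups, but the shares of a summed level depend on the lengths in each group.

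**Figure D3:**
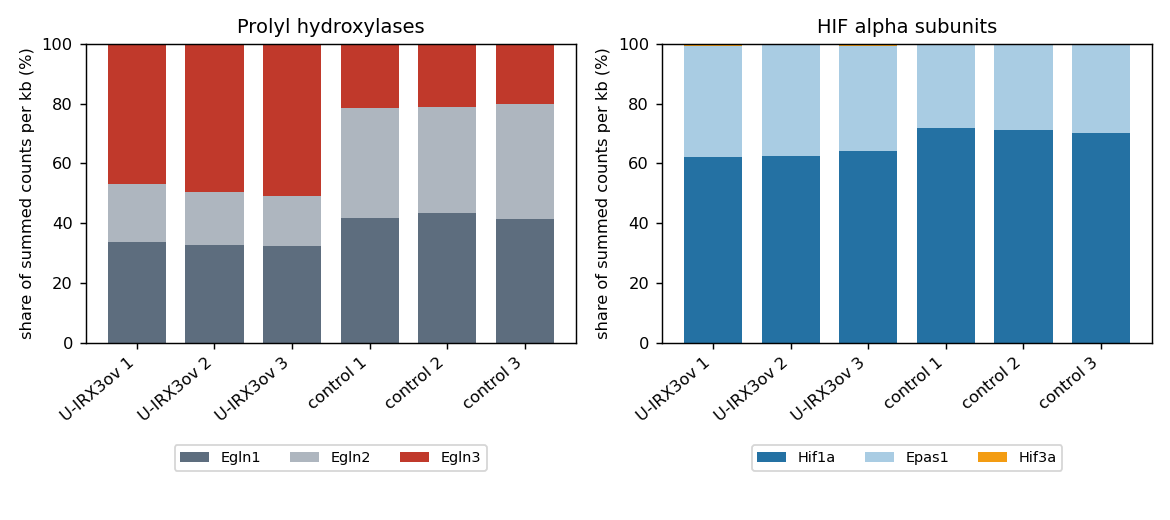
Share of each gene in the summed counts per kb of its family, in percent, for the 3 U-IRX3ov libraries on the left and the 3 control libraries on the right of each panel. Egln3 takes 46.9% to 50.9% of the hydroxylase level in U-IRX3ov and 20.1% to 21.6% in control libraries. Hif3a, at most 0.559%, is too thin to be seen.

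Promoter sequence was looked at because Egln1, Egln3, Car9 and Ankrd37 rose together and are known HIF targets. RefSeq windows of build GRCm38.p6, from 250 bases before to 50 after the annotated start, were found for 9 of the 10 genes, with 2 windows for Egln2 and no entry for Epas1. The core of the hypoxia response element was searched as the words ACGTG and GCGTG on both strands. The first word overlaps itself on the other strand where a window holds CACGTG. Either word was present in 9 of the 10 windows, which belong to 8 of these 9 genes, and missing from that of Vhl. The same words were in 43.8% of all 32851 windows and in 60.2% of the 13471 windows of genes tested. Windows of the members had 49.3% to 86.0% G and C, beside a median of 60.3% for genes tested, and words with CG are more frequent in such sequence. Stretches of 29 bases around the word are shown for these 4 genes in the direction of transcription, with the word in capitals. Its first base is counted from the RefSeq start. Not all words are shown: those of Egln1 at -126 and of Ankrd37 at -241 and -6 are left out. In Car9 and in the first Ankrd37 line the capitals are the reverse complement of the word, and the Ankrd37 pair overlaps.

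Egln3, position -229 (chr12:54204087-54204115, minus strand): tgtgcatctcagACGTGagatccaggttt
Egln1, position -68 (chr8:124949306-124949334, minus strand): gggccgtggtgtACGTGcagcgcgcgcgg
Car9, position -18 (chr4:43506996-43507024, plus strand): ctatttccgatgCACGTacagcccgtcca
Ankrd37, position -155 (chr8:45999989-46000017, minus strand): accttcactgcgCACGCgtgctgcggccg
Ankrd37, position -152 (chr8:45999986-46000014, minus strand): ttcactgcgcacGCGTGctgcggccgcct

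Egln3 and Car9 held 1 such word each, Egln1 held 2 and Ankrd37 4. The windows of genes that did not rise held them too. A window of Egln2, whose level did not pass the threshold, held 6, and that of Hif1a, which fell, held 3. Each of these counts includes a CACGTG that was counted on both strands. The windows of Hif1a and Ankrd37 and the other window of Egln2 lie at starts inside the annotated gene. Both Ankrd37 stretches therefore lie within its span, where Lrp2bp overlaps it. The starts used for Car9, Egln1, Vhl and Arnt also lie inside the annotated gene, close to its edge. The Car9 stretch lies within the span of Car9, where Gm12454 overlaps it, and the Egln1 stretch crosses the annotated edge of Egln1. A match describes these letters only and is not a bound site.

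The surrounding pathway was described with 3 lists of genes put together from textbook roles, with earlier results of these data known. Of 22 genes of HIF turnover and cofactors 3 rose, 6 fell and 13 did not pass, beside 20.2% higher and 21.1% lower among all genes tested, so the share called was near that of all genes. Their median log2 fold change was -0.06. Without U-IRX3ov replicate 2, 3 fell. Arnt2, a paralog of Arnt, fell to 4.80 ± 1.58 CPM in U-IRX3ov cells, against 11.9 ± 0.37 CPM in control cells (SD, n = 3; log2 fold change -1.31 ± 0.16 SE). Cul2, the scaffold of the VHL ubiquitin ligase, rose by 0.26 ± 0.04 on the log2 scale, and the deubiquitinase Usp33 by 0.22 ± 0.04. Cited2, which competes with HIF for its coactivators, had a log2 fold change of -0.22 ± 0.05, and the lectin Os9 one of -0.36 ± 0.04. The asparagine hydroxylase Hif1an, which blocks the transactivation domain of the alpha subunits, had 61.9 ± 1.73 CPM in U-IRX3ov and 58.9 ± 2.46 CPM in control cells and did not pass. Hif1an was named for its role and not by the rule.

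Glycolytic HIF targets rose in 19 of 20 genes, beside 20.2% of all genes tested, with a median log2 fold change of 0.97. No gene of this list fell in the edgeR test, where 1 was lower at an unadjusted p under 0.05, and 0 fell in DESeq2 and limma-voom. Without U-IRX3ov replicate 2, and likewise without control replicate 2, 1 fell. The mitochondrial kinase Pdk1, which holds pyruvate back from the tricarboxylic acid cycle, had 150 ± 11.2 CPM in U-IRX3ov and 56.9 ± 1.46 CPM in control cells (log2 fold change 1.39 ± 0.05). The hexokinase Hk2 (1.13 ± 0.04), Pfkfb3 (1.09 ± 0.04), Pfkl (1.06 ± 0.04) and Gpi1 (1.06 ± 0.04) were the others with the smallest p. The exception was Pfkfb4, named after its value was seen, with 14.7 ± 1.66 CPM in U-IRX3ov and 17.0 ± 1.501 CPM in control cells.

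Other HIF targets were mixed. Of 36 genes 32 were tested, 20 rose, 8 fell and 4 did not pass, with a median log2 fold change of 0.43. Among all genes tested 20.2% were higher and 21.1% lower, and the share of this list that fell was near the second value. Vegfa, the main growth factor of blood vessels, had 318 ± 5.56 CPM in U-IRX3ov and 179 ± 4.70 CPM in control cells (log2 fold change 0.83 ± 0.04). Ak4, a mitochondrial adenylate kinase, had 103 ± 9.77 CPM in U-IRX3ov and 30.9 ± 2.10 CPM in control cells (1.74 ± 0.07). Fam162a, a mitochondrial protein, rose by 1.28 ± 0.05 and the repressor Bhlhe40 by 0.89 ± 0.06. Lox, which cross-links collagen, fell to 2380 ± 70.1 CPM in U-IRX3ov cells, against 3877 ± 169 CPM in control cells (-0.70 ± 0.04). Others that fell, named after their values were seen, were Loxl2, Plod2, Tmem45a, Adm, Ddit4 and Edn1, with log2 fold changes from -0.55 to -0.33. Epo, Nos2, Car12 and Angptl4 had too few counts to be tested.

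**Figure D4:**
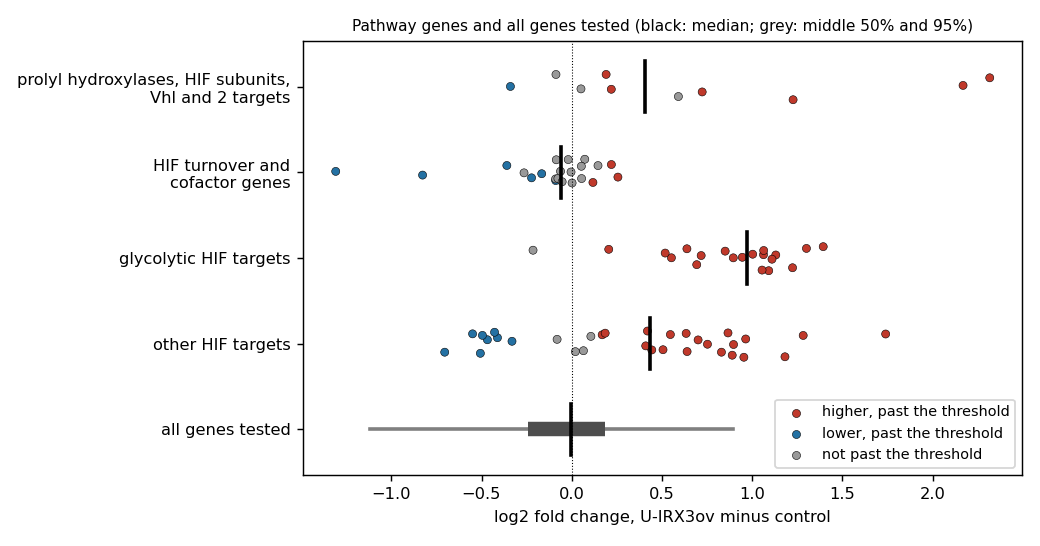
Log2 fold change, U-IRX3ov minus control, of the 10 genes and of the tested members of 3 pathway lists, with medians as black lines, above the middle 50% and 95% of all 14757 genes tested. The medians are 0.41, -0.06, 0.97 and 0.43 from top to bottom, and 19 of 20 glycolytic targets lie to the right of 0.

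By Pearson correlation of log2 CPM over the 6 libraries, the genes with a pattern most like that of Egln3 were Elmod2 (r = 0.9998), Lpin1 (0.9997), Ptges2 (0.9996), Ogdh (0.9996) and Pdk4 (0.9995), among 8980 other genes with a mean of at least 10 CPM. The libraries form 2 groups, so r mainly reflects the difference between them, and 360 of these genes had an r above 0.99. The likeness is one of pattern and not of size. Elmod2 had 289.9 ± 11.7 CPM in U-IRX3ov and 133 ± 3.08 CPM in control cells, a 2.18-fold difference, against 4.98-fold for Egln3.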

How the data were processed

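RNA was sequenced from 3 U-IRX3ov and 3 control libraries of induced brown adipocytes. The deposited table holds raw counts of reads by gene symbol, not normalized. HISAT2 2.0.4 and build mm10 are named in the submitters' processing notes, while counting program, annotation and strandedness are not stated there or in the labels. The table had 46095 rows, 24947 of them with a count, and no column without a sample. Libraries held 20094799 to 26755870 counts.

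Low genes were removed with filterByExpr and 14757 were tested with edgeR 4.0.16 (R 4.3.3), using its quasi-likelihood F test (robust, no covariate), TMM scaling, and Benjamini-Hochberg adjustment over all genes. A call is an adjusted p under 0.05. CPM values are TMM-scaled. SE was taken as the absolute log2 fold change over the root of F. With 3 libraries per group an exact permutation p has a floor of 0.1, so none was used. Alternatives were other scalings and filters, DESeq2 1.42.0, limma-voom (limma 3.58.1), a threshold of 0.01, the replicate number as a block, and fits without each library. The scripts were tested on simulated data. Exon lengths and coordinates are from GENCODE M21 (GRCm38, the assembly of mm10), matched by symbol, and promoter windows from RefSeq. The members' windows were used as supplied, and a match to GENCODE transcripts showed that they read in the direction of transcription. The exception was Hif1a, where no match of 20 bases was found.

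Chi-square per degree of freedom between libraries of the same group was 2.92 to 4.91, above counting noise, so none was treated as a copy. The genes and lists were chosen with earlier results of these data known. The genes named are the 10 members, Irx3, the 5 of each pathway list with the smallest p, and the 5 whose pattern is most like that of the member with the largest absolute change at 10 CPM or more. Others are marked, except the cell markers and the genes that overlap or lie near a member, which this rule does not cover. A member of the lists is not reported by name here. Intervals cover counting error only.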

Additional observations from a re-analysis of the deposited data

How the results depend on the processing

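All 7 calls among the 10 genes were kept in count and direction (6 higher, 1 lower) in the 6 fits without 1 library, with DESeq2, limma-voom, DESeq2 size factors, upper-quartile scaling, no filter on low counts, a threshold of 0.01 and the replicate block. With a filter of 1 CPM in 3 libraries Car9 was not tested. Library totals alone gave 1935 genes higher in place of 2978, 2 members lower in place of 1, with Epas1 and Vhl no longer called and Arnt called, and turned Egln2 to -0.045; the turnover list then had 10 lower genes in place of 6 and the glycolytic list 1 in place of 0. A threshold of 0.01 left 3 lower turnover genes. Without 1 library, lower turnover genes ran from 3 to 7 and lower glycolytic genes from 0 to 1. Without U-IRX3ov replicate 2 the turnover list had 3 lower genes and the glycolytic list 1, and 1 glycolytic gene was lower also without control replicate 2. The cause of these shifts was not tested. Same-numbered libraries deviated together with correlations of 0.022, 0.07 and 0.05, and different-numbered ones with -0.068 to 0.019. Each same-numbered value was thus above every different-numbered one. All were under 0.1, so the numbers were not taken as pairs, and with the replicate block 7 members were called. Low counts limit Car9, Hif3a and Ankrd37.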

Other observations

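Gm15283, a noncoding gene antisense to Hif1a, was among the genes most different between the groups. It held 54, 52 and 53 counts in U-IRX3ov libraries and 1 count in each control library, or 2.08, 2.67 and 2.74 CPM in U-IRX3ov and 0.0365, 0.0382 and 0.0371 CPM in control libraries. Summed over libraries this is 159 counts in U-IRX3ov and 3 counts in control cells, a ratio of 65.8 after scaling (exact 95% interval 22.1 to 322, counting error only). Its fitted log2 fold change had rank 2 of 14757 genes, a value that depends on how so low a control count is handled. Gm15283 passed the filter on low counts only through its U-IRX3ov libraries, so a large rise is partly built into its being tested. The gene spans 106.8 kb on chromosome 12, from 73843039 to 73949814 (minus strand, mm10), and 330 of its 2353 exon bases lie within exons of Hif1a. Of the other protein-coding genes within 500 kb that have a row in the table used here, Tmem30b (-0.47 ± 0.20), Prkch (-0.05 ± 0.21) and Snapc1 (0.10 ± 0.08) had log2 fold changes that did not pass, and Syt16 held 0 to 3 counts in U-IRX3ov and 0 to 1 in control libraries. The gene was picked after its values were seen, and where in its span the reads lie cannot be read from a count table.

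Ndufa4l2, a known HIF target that was in none of the lists and was picked after its value was seen, had 30.9, 29.9 and 25.6 CPM in U-IRX3ov libraries and 5.73, 6.61 and 5.49 CPM in control libraries, a log2 fold change of 2.28 ± 0.10 (SE).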
